A study of Drosophila melanogaster with 10 samples.

Results

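The oxidative phosphorylation (OXPHOS) genes of the Drosophila nucleus encode the mitochondrial respiratory chain complexes and the ATP synthase. They were taken from the RefSeq gene table of the dm6 assembly as every protein-coding gene whose symbol begins with ND- (complex I), UQCR- (complex III), COX (complex IV) or ATPsyn (complex V, the ATP synthase). This gave 80 of the 13922 protein-coding genes on arms 2L, 2R, 3L and 3R and chromosomes X and 4. Of these, 59 were subunit genes and 21 were paralog copies, which carry the symbol of a subunit gene followed by L, L1 or L2. The subunit genes comprised 34 of complex I, 6 of complex III, 8 of complex IV and 11 of complex V. The copies comprised 6 of complex I, 3 of complex III, 8 of complex IV and 4 of complex V.

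Complex I oxidizes NADH and passes its electrons to ubiquinone, complex III passes them on to cytochrome c, and complex IV hands them to oxygen. The proton gradient built up on the way drives the ATP synthase. Nearly all cells need these subunits, and the genes of a complex are scattered over the chromosomes, so they serve as an example of housekeeping genes. Flies also have extra copies of many of them, and many such copies are known for expression in the testis.

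The study used S2 cells, a line derived from male Drosophila embryos with features of blood cells. They were treated for 5 days with double-stranded RNA against GAF (the GAGA factor, a DNA-binding protein), BAP170 (a subunit of the remodeling complex PBAP), NURF301 (a subunit of the remodeling complex NURF), NURF301 and BAP170 together, or LACZ as the control. Each treatment had 2 replicate libraries. Open chromatin in the 10 libraries was measured by ATAC-seq, in which Tn5 transposase inserts sequencing adapters where DNA is accessible. The values used here come from 1 list of peak summits called on all 10 libraries together, so no value belongs to a sample or a condition, none has a replicate error, and the effect of each knockdown was not analysed here.

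The list held 39806 summits in 15615 peaks. A summit is the base at which the signal of a peak, or of a part of it, is highest, and its score is −log10 of the q value given by the peak caller. Scores ran from 1.30 to 80130 with a median of 21.9. The depth of each library is unknown, and the score grows with read depth and with DNA copy number as well as with accessibility. A gene was counted as having a summit when one lay within 500 bp of either annotated boundary. Since the gene table gives no strand, the start of a gene could not be told apart from its end, and a summit at a neighboring promoter can also count. The strongest such summit gives the score of the gene. Of the marker genes of the blood cell lineage, 5 of 6 had a summit (srp, ush, Pxn, Hml and eater, but not NimC1), against 2 of 5 markers of neurons, germ line and muscle (elav and vas, but not nSyb, bam or Mhc). Over all protein-coding genes the share was 60.0%, and the marker counts, over so few genes, were not tested against it.

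Nearly all subunit genes lay at open chromatin and most of their copies did not. A summit lay within 500 bp of a boundary of 58 of the 59 subunit genes (98.3%, 95% Wilson interval 91.0 to 99.7). The same held for 6 of the 21 paralog copies (28.6%, interval 13.8 to 49.96), against 8358 of the 13922 protein-coding genes, a background of 60.0%. Over all 80 OXPHOS genes the count was 64, or 80.0%. The intervals cover counting error only, and genes are not replicates, so neither these differences nor those between the median scores were tested. Open chromatin near gene boundaries was also the rule in another set of widely used mitochondrial genes, the mitochondrial ribosomal protein genes, where all 73 genes had a summit. It was less frequent in the genes of the vacuolar ATPase, which acidifies organelles, with 22 of 33 (66.7%). This family includes copies as well as widely used subunits.

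The scores of the subunit genes were, in contrast, ordinary. Among the 58 with a summit the median score was 113, with quartiles at 51.1 and 225, and among the 6 copies it was 12.2, against 103 for all protein-coding genes with a summit, with quartiles at 40.7 and 197. Of the 58 subunit genes, 31 exceeded the median of all genes, whereas none of the 6 copies did. Mitochondrial ribosomal protein genes had a median of 103 and vacuolar ATPase genes one of 181. The subunit genes thus stood apart from all genes in how many had a summit more than in the score of that summit. With summits at or above the median score of the list, the order of the medians turned, to 123 in 51 subunit genes against 128 in all genes. The median of the copies rests on few genes. It was 6.45 over 5 copies at 250 bp, 51.5 over the 2 copies left with summits at or above the median score, 7.93 with ND-MNLL counted as a copy and 7.03 over the 3 isolated copies.

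**Figure D1:**
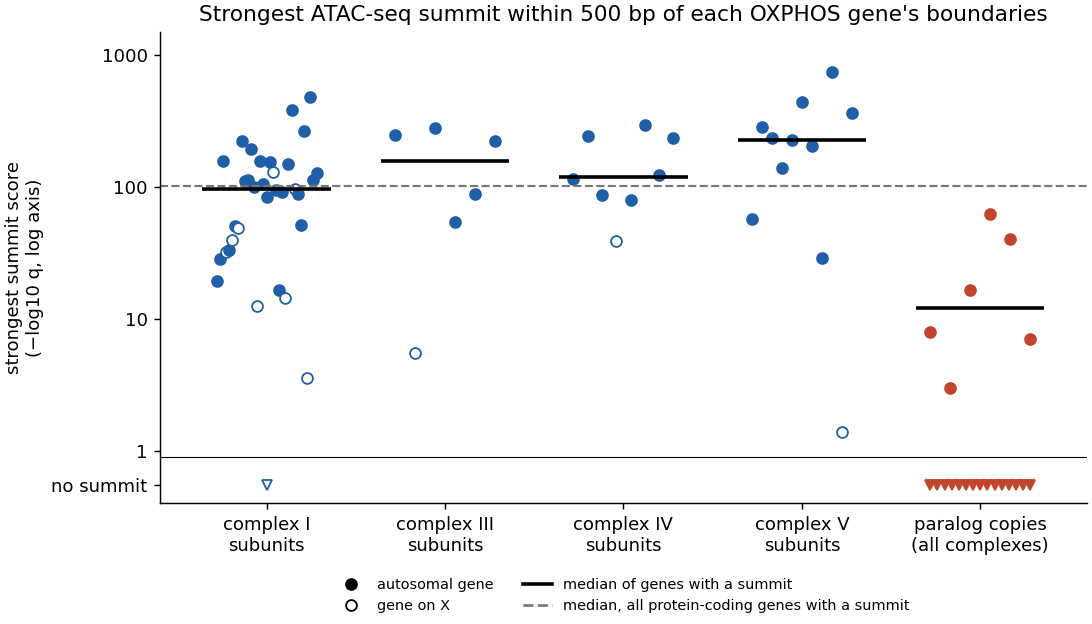
Score of the strongest summit within 500 bp of a gene boundary (−log10 q, log axis) for each OXPHOS gene, with subunit genes by complex and paralog copies in a column of their own (open symbols, genes on X; triangles, no summit; solid lines, group medians; dashed line, median of all genes with a summit). Subunit genes spread from 1.38 to 751 around the median of all genes with a summit (103), and the 6 copies lie between 3.02 and 62.7, all below it.

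Complex V had the highest scores of the complexes. All 11 of its subunit genes had a summit, 8 of them scored above the median of all genes, and their median was 230. At 250 bp the median was 140, still the highest of the complexes, and when each peak kept its strongest summit alone 9 of the 11 genes had a summit (81.8%), the lowest share of the complexes. The strongest was ATPsynbeta, the catalytic subunit, which lies on chromosome 4 from 1031484 to 1034917. Its main summit scored 751, stood alone in its peak and lay 314 bp inside the gene, but only 41 bp from CG11076. The summit 66 bp beyond the other boundary scored 21.9. No other gene on chromosome 4 scored higher, but the summit of 751 counts for CG11076 as well. ATPsynF, of the membrane part, followed with 441 at a summit 29 bp outside the gene (2R, 24599088 to 24599821). ATPsyngamma, the central stalk (3R, 29747704 to 29749163), reached 367 and had 7 summits, of which 3 at one end scored between 2.75 and 7.37 while 2 outside the other end scored 297 and 238.

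Several complex V genes had many summits. ATPsynE, a small membrane subunit (3R, 14326947 to 14327735), had 7 summits, 6 of which scored above 70, and its strongest (230) belonged to a peak with 9 summits. ATPsynD, of the peripheral stalk (3R, 19095000 to 19096271), also had 7, with the strongest at 140. The ring subunit gene ATPsynC (3R, 31216145 to 31219630) had summits near both boundaries, 97.7 at the stronger of those outside one end and 287 outside the other. Complex V genes averaged 3.64 summits each, and 9 of the 11 had at least 2 (81.8%). Among all 59 subunit genes 39 had at least 2 (66.1%), as did 5 of the 21 copies (23.8%), against 43.1% of all protein-coding genes. The strongest summit stood alone in its peak at ATPsynbeta, ATPsynB and ATPsyndelta.

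The same complex held the weakest subunit gene. ATPsyndelta, another part of the catalytic head and stalk (X, 10212970 to 10217393), had a single summit of 1.38, close to the lowest score in the list, 17 bp outside the gene. ATPsynO and ATPsynB, which form part of the peripheral stalk, scored 29.0 and 57.7. Of the others, ATPsynCF6 scored 237 and ATPsynG 206. For ATPsynG the strongest summit lay 449 bp from the gene and 76 bp from SCAR, whereas the closest, 75 bp inside it, scored 133.

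Complex I had a median score of 97.9, the lowest of the complexes at 500 bp, and the only subunit gene without a summit. At 250 bp its median was 97.0, above the 89.7 of complex III. A summit was found at 33 of its 34 genes, and 15 of the 33 exceeded the median of all genes. The strongest was ND-MWFE (2R, 13158666 to 13160190), a small membrane subunit, with summits of 481 and 389 within 207 bp outside the same boundary. ND-B17.2 (2L, 2579201 to 2580172) followed with 385 and ND-MLRQ (3L, 23339326 to 23345936) with 268. ND-ACP, the mitochondrial acyl carrier protein, which also serves in fatty acid synthesis, scored 159 and had 5 summits (3L, 1329949 to 1331631).

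The lowest complex I scores were those of ND-MNLL (X, 7893053 to 7893798) at 3.55, ND-75 (X, 8248651 to 8251687) at 12.6 and ND-B16.6 (X, 6349016 to 6350401) at 14.5. ND-75 encodes the large iron-sulfur subunit of the electron input module, so a low score was not limited to accessory subunits. It had 4 summits, the strongest 10 bp outside the gene. Complex I has a core of conserved subunits that carry the cofactors and electron path, and 7 of these are nuclear in the set (ND-75, ND-51, ND-49, ND-30, ND-24, ND-23 and ND-20). All 7 had a summit, with scores between 12.6 and 223 and a median of 50.9. Of the 27 accessory subunits 26 had one, with a median of 102. This division was made after the values were seen, and 3 of the 7 core genes and 6 of the 27 accessory genes are on X, where scores were lower.

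ND-ASHI, an accessory subunit (X, 6677262 to 6679118), was the subunit gene with no summit within 500 bp. Its closest summit lay inside the gene at 6678094, 832 bp from the nearer boundary, with a score of 6.74. The subunit gene just inside the limit was ND-13A (2L, 5099177 to 5100288), whose only summit lay 255 bp from its boundary with a score of 19.6. Among the copies the limit fell between COX4L at 320 bp and COX7CL at 701 bp. At 1000 bp all 59 subunit genes had a summit.

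All 6 genes of complex III and all 8 of complex IV had a summit, with median scores of 157 and 120. The median of the 6 complex III genes was 89.7 at 250 bp, below the 120 of complex IV there, and 226 over the 5 genes with summits at or above the median score. In complex III, UQCR-6.4 (2R, 17572096 to 17572784) scored 280, UQCR-11 (3L, 25120709 to 25126171) 248 and UQCR-Q (3L, 17474761 to 17476124) 226. These are small subunits. The larger core proteins UQCR-C2 (3L, 16584124 to 16586111) and UQCR-C1 (3R, 14890231 to 14892387) scored 88.7 and 55.0, and UQCR-14 (X, 16286288 to 16286988) 5.49. UQCR-11 was the only subunit gene with no boundary of another gene within 1000 bp. Its strongest summit lay 21 bp inside the gene, and the nearest other coding gene, MED21, was 4784 bp from that summit.

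In complex IV the highest scores belonged to COX7B (3L, 17425477 to 17426282) at 297, COX5A (3R, 11819359 to 11820299) at 243 and COX8 (3L, 21538859 to 21539447) at 237. These are nuclear subunits around a catalytic core that the mitochondrial genome encodes. The strongest summit counted for COX8 lay 498 bp from it but only 83 bp from VhaM9.7-b, a vacuolar ATPase gene, and a summit of 201 lay 28 bp inside COX8 itself. The lowest were COX6B (X, 19740537 to 19744335) at 39.5, COX7A (3R, 8339944 to 8341043) at 79.8 and COX5B (2L, 6557800 to 6559308) at 87.0. Between them stood COX4 at 116 and COX7C at 123. Complex IV had no gene under 39.5, whereas each of the other complexes had at least 1 gene under 6, in every case on X.

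Summits lay close to the ends of the subunit genes. The closest summit was at a median of 66 bp from a subunit gene and 2745 bp from a copy, against 179 bp over all protein-coding genes. Within 50 bp, 42.4% of subunit genes and 4.76% of copies had a summit, against 21.0% of all genes, and within 250 bp 94.9% and 23.8%, against 54.1%. The closest summit lay within 10 bp of 8 subunit genes, a count not made over all genes. Among them were ND-B14.5A and ND-B12 at 2 bp and UQCR-6.4 at 5 bp. None of the subunit genes was more than 832 bp from a summit. Of the copies, 14 were over 1000 bp away, while 65.7% of all genes had a summit within 1000 bp. The closest summit was over 10000 bp away for 6 copies, a distance exceeded by 11.6% of all genes. Even at 5000 bp only 66.7% of copies had a summit, against 81.8% of all genes.

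**Figure D2:**
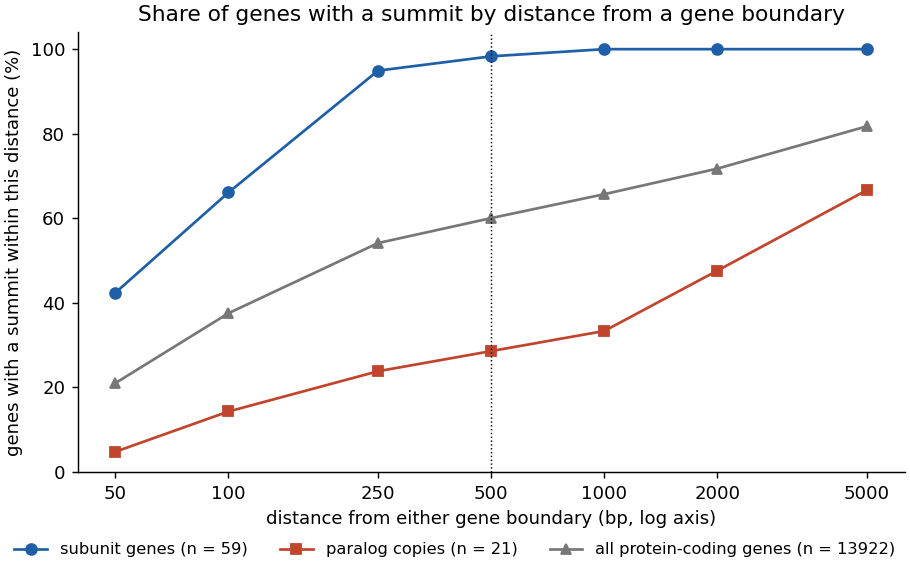
Share of genes (%) with at least 1 summit within 50 to 5000 bp of either boundary (log axis) for subunit genes, paralog copies and all protein-coding genes, with the limit of 500 bp dotted. Subunit genes reach 94.9% by 250 bp and 100% by 1000 bp, and copies stay below all genes at every distance, with 66.7% at 5000 bp against 81.8%.

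The strongest summit of the 58 subunit genes lay inside the gene for 29 and outside it for 29, at a median of 90 bp from the boundary, and 32 were within 100 bp. It stood alone in its peak for 20 genes and belonged to a peak with 5 or more summits for 11. Many of these summits are shared with neighbors. For 47 of the 58 genes the strongest summit was also within 500 bp of a boundary of another coding gene, and for 10 that gene was the nearer. The 10 were ATPsynbeta, ATPsynG, COX5A, COX8, UQCR-Q, UQCR-C1, ND-49, ND-39, ND-SGDH and ND-B8. They had a median score of 202, and the 48 whose own boundary was nearer or as near had one of 99.6. Which of the neighboring genes such a summit belongs to cannot be told apart without strand. The counts in this paragraph were not made over all protein-coding genes. Whether they differ from those of genes at large is thus unknown.

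The share of genes with a summit also went with the number of neighbors. Subunit genes are short, with a median length of 1178 bp against 2163 bp for all protein-coding genes. A boundary of another gene lay within 1000 bp of 58 of the 59, as it did for 11681 of all 13922 protein-coding genes. Among all genes the share with a summit was 27.2% for those with no such boundary and 66.3% for those with at least 1. The share among all genes, weighted to the crowding of the subunit genes, was 69.9%, against 98.3% measured in the subunit genes. Weighted to the crowding of the copies it was 44.1%, against 28.6% measured in the copies. Of the 21 copies, 12 stood isolated, against 2241 of all 13922 protein-coding genes. A summit was found at 3 of these 12 copies (25.0%), close to the 27.2% of isolated genes at large. Of the 9 with a neighbor, 3 had one (33.3%), against 66.3%. Length gave the same order, since all 20 subunit genes under 1000 bp and 3 of the 15 copies under 1000 bp had a summit, against 34.7% of all genes of that size.

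**Figure D3:**
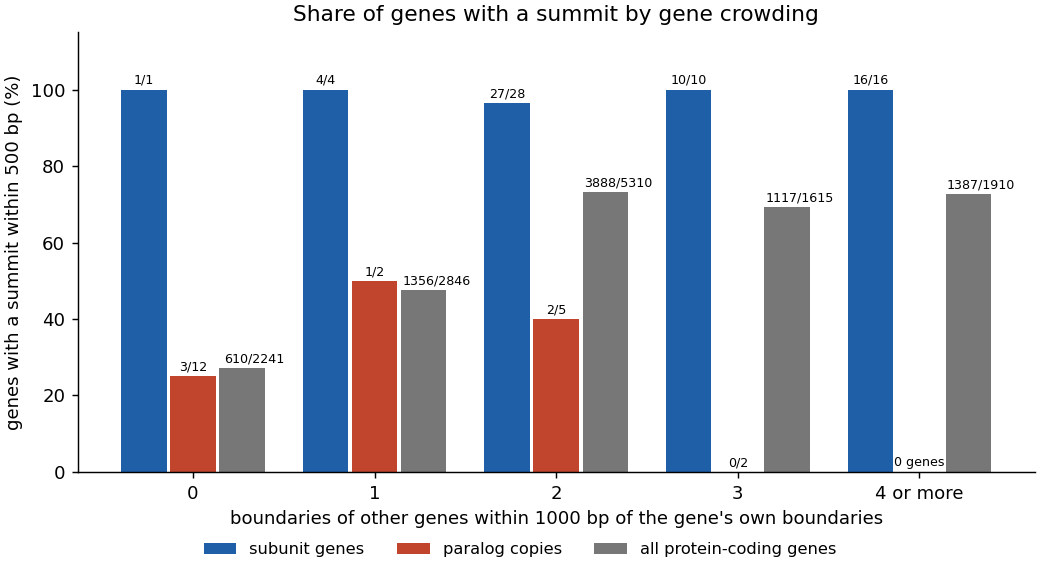
Share of genes (%) with a summit within 500 bp, by how many boundaries of other genes lay within 1000 bp, for subunit genes, paralog copies and all protein-coding genes, with the genes with a summit out of those in each class printed above each bar. Subunit genes stay at or above 96.4% in every class, while all genes run from 27.2% with no neighbor to between 69.2% and 73.2% with 2 or more.

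Scores were lower on X than on the other chromosomes. On X, 11 of the 12 subunit genes had a summit, with a median score of 32.2. On chromosomes 2 and 3, all 45 had a summit, with a median of 123. All genes showed the same difference, with medians of 35.0 on X and 117 on chromosomes 2 and 3. The highest X score was that of ND-B14.5A at 130, the only X-linked subunit gene above the median of all genes, followed by ND-B18 at 97.9, ND-24 at 48.9 and ND-20 at 40.1. Next came COX6B at 39.5, ND-18 at 32.2, ND-B16.6 at 14.5 and ND-75 at 12.6. UQCR-14, ND-MNLL and ATPsyndelta, at 5.49, 3.55 and 1.38, were the only subunit genes in the lowest 10% of all genes with a summit. Of the 13 in the lowest 25%, 8 were on X.

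Measured against their own chromosomes, the subunit genes stood near the middle. The median of X genes was exceeded by 5 of 11 on X, and the median of the genes of chromosomes 2 and 3 by 23 of 45 there. The order of the complexes on chromosomes 2 and 3 alone was complex V with a median of 230, complex III with 226, complex IV with 123 and complex I with 109. Complex I has 9 of its 34 genes on X, where their median was 36.1, and each other complex has 1. Chromosome 4 holds ATPsynbeta at 751 and ND-49 at 197, and the median of all genes with a summit on this small chromosome was 229. S2 cells carry fewer copies of X than of the large autosomes, and the part of copy number in these scores was not tested.

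**Figure D4:**
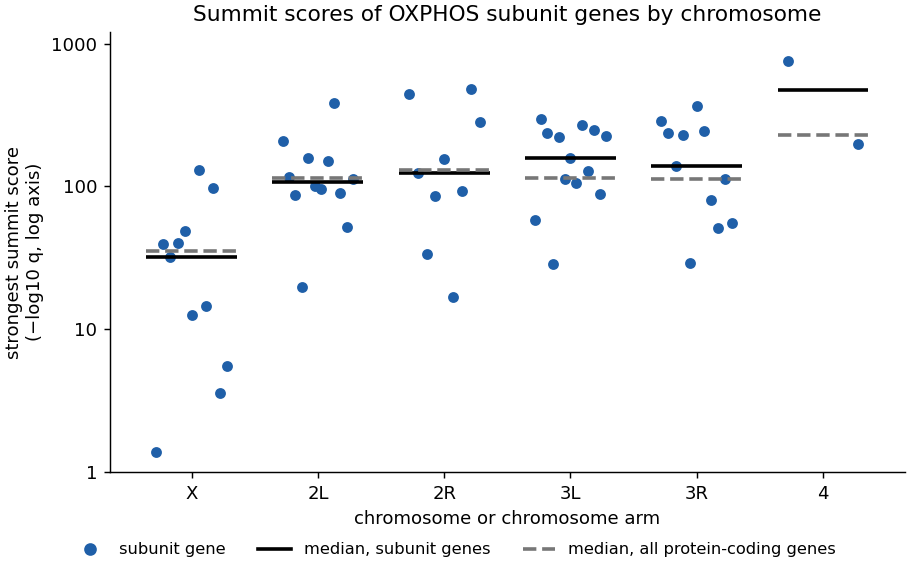
Score of the strongest summit within 500 bp (−log10 q, log axis) of each OXPHOS subunit gene, by chromosome or arm (solid lines, medians of the subunit genes; dashed lines, medians of all protein-coding genes with a summit there). The 11 X-linked genes lie between 1.38 and 130 around an X median of 35.0, and the 45 genes on chromosomes 2 and 3 between 16.7 and 481.

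Each copy was set beside the subunit gene it is named after. All 18 such subunit genes had a summit. Their median score was 120, and they spanned 5.49 to 751. Of them, 3 go by other symbols and were matched through synonyms in the gene table (levy for the COX6A copies, cype for COX6CL and sun for ATPsynepsilonL). In 15 of the 21 pairs the subunit gene alone had a summit, in 6 both had one, and in none was the copy alone. In each of the 6 the subunit gene scored higher. The copies are all on chromosomes 2 and 3, while 5 of the 18 subunit genes are on X and 2 on chromosome 4, so the lower X scores fell on the subunit side.

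**Figure D5:**
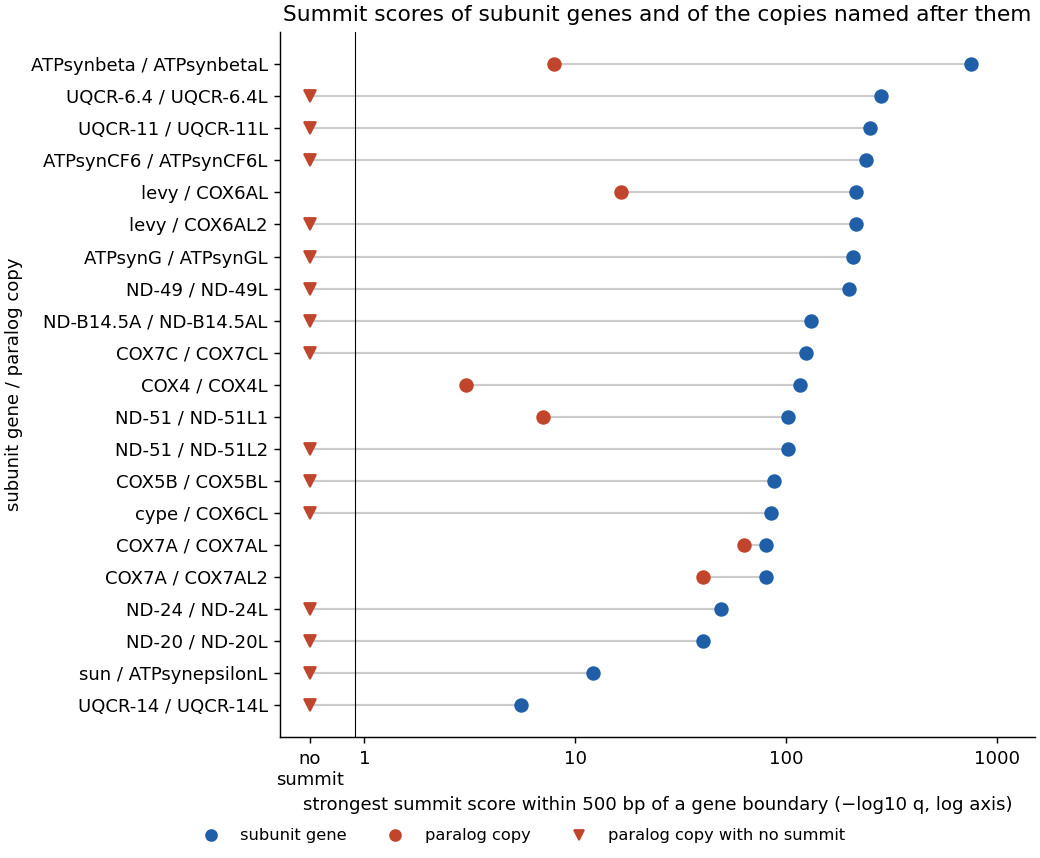
Score of the strongest summit within 500 bp (−log10 q, log axis) for the subunit gene and the paralog copy of each of 21 pairs, sorted by the score of the subunit gene, with copies that had no summit as triangles at the left. The subunit gene lies to the right of its copy in the 6 pairs with both scores. The gap is narrowest for COX7A at 79.8 and COX7AL at 62.7. The other 15 copies have no score and are drawn at the left whatever the subunit gene scored.

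The highest-scoring copy, COX7AL (3R, 8343669 to 8344310), lies 2625 bp from COX7A. COX7A scored 79.8 and COX7AL 62.7, but the summit of 62.7 lay 139 bp outside COX7AL and 49 bp from DppIII. The summit closest to COX7AL, 2 bp away, scored 16.7. COX7AL2 (2L, 2192525 to 2197912) scored 40.3 at a summit 6 bp from CG10874, and ATPsynbetaL (3L, 16097834 to 16100088) 7.93 at one 135 bp from IleRS-m. In these 3 copies the strongest summit was thus nearer to another coding gene.

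The other 3 copies with a summit had no gene boundary within 1000 bp, and their scores were below the list median of 21.9. COX6AL (2R, 15944028 to 15944567) scored 16.5 at 472 bp, with levy at 214. ND-51L1 (2R, 17595267 to 17597409) scored 7.03 at 343 bp, and ND-51, which encodes the NADH-binding flavoprotein subunit, 101. COX4L (2R, 5353994 to 5354723) scored 3.02 at a summit inside the gene, with COX4 at 116. No copy had its strongest summit within 100 bp of its boundary.

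Of the 15 copies with no summit within 500 bp, COX5BL and COX7CL lie beside their subunit genes. COX5BL (2L, 6559431 to 6560133) begins 122 bp from COX5B, whose only summit (87.0) lies outside its far boundary, and the summit closest to COX5BL was 1460 bp away. COX7CL (2R, 10050348 to 10050874) lies 281 bp from COX7C, which had 4 summits, and the one closest to COX7CL, inside COX7C, was 701 bp away. Both copies thus lacked a summit although the adjacent subunit gene had one.

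The remaining 13 did not lie beside their subunit genes. In complex I the closest summit lay 22972 bp from ND-49L, 18302 bp from ND-24L, 17105 bp from ND-B14.5AL, 5230 bp from ND-51L2 and 3943 bp from ND-20L. The subunit genes of these copies carry the electrons into and through complex I, except ND-B14.5A, an accessory subunit. In complex III it lay 3120 bp from UQCR-6.4L, 2792 bp from UQCR-14L and 1551 bp from UQCR-11L. In complex IV it was 13520 bp from COX6CL and 2745 bp from COX6AL2. In complex V it was 20804 bp from ATPsynGL, 16921 bp from ATPsynCF6L and 1292 bp from ATPsynepsilonL. Distances varied even within pairs of copies of 1 subunit gene, as with COX6AL at 66 bp and COX6AL2 at 2745 bp.

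Complex II, which is outside the symbol rule, gave the same division, though with only 2 copies. All 4 genes of complex II, which feeds electrons from succinate into the chain, had a summit, with SdhA at 156, SdhB at 152, SdhC at 126 and SdhD at 83.0. Their copies SdhAL and SdhBL had none within 500 bp, and the closest lay 67531 bp and 862 bp away. Among 6 further subunits with names of their own, all had a summit, from RFeSP (the Rieske iron-sulfur protein of complex III) at 562 to sun (the epsilon subunit of the ATP synthase, on X) at 12.2. The others were blw (the alpha subunit of the ATP synthase) at 248, levy at 214, Cyt-c1 (cytochrome c1 of complex III) at 166 and cype at 85.0. The neighboring cytochrome c genes Cyt-c-d and Cyt-c-p both had a summit, shared a strongest one of 146, and showed no such division.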

How the data were processed

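ATAC-seq of 10 S2 cell libraries (5 groups of 2, by the dsRNA in the labels) was deposited by the authors as 1 list of peak summits called on all libraries together, with the score of each summit as −log10 of its q value. The submitters' processing notes name the dm6 build and DESeq2 1.26.0, Bowtie2 2.3.5.1, deepTools 3.1.3 and MACS2 2.1.0.20150731, with no step beside each. Not given in the sources used here are read filters and any shift of reads for Tn5. Columns without a mapped sample numbered 0.

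Gene boundaries came from the RefSeq table of the same assembly, which has no strand, exons or sequence. Summits within 500 bp of either boundary were assigned to each gene, and a gene was called isolated when no boundary of another gene lay within 1000 bp. The 3 of 13 mitochondrial protein-coding genes that the symbols match were left out. ND-MNLL, whose last letter belongs to its subunit name, was counted as a subunit. Shares have 95% Wilson intervals, which cover counting error only. Medians have 95% intervals from the ranks of the scores, used only to label the alternatives. No test was run. The matching was tested on simulated data with genes far apart, so the test does not cover summits shared by neighboring genes. The members and lists were chosen with earlier results of these data known. Genes named were every copy and its subunit gene, every member without a summit, the 3 highest and 3 lowest of each complex and those at the distance limit. Others (such as ND-ACP, ATPsynD, ATPsynE and ATPsynC), the X-linked genes and the remaining values were added after they were seen. Alternatives were 250 and 1000 bp, isolated genes, summits at or above the median score, the strongest summit of each peak and ND-MNLL as a copy. Analysis was done in Python 3.11.15 with matplotlib 3.10.9, scipy 1.17.1, pandas 2.3.3 and numpy 2.4.6.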

Additional observations from a re-analysis of the deposited data

How the results depend on the processing

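The order of the shares, subunit genes above all genes and all genes above copies, was kept at 250 bp, at 1000 bp, with the strongest summit of each peak and with summits at or above the median score, with 86.4 to 100% of subunit genes and 9.52 to 33.3% of copies. Of 86 alternative values, 67 stayed within the interval of the value reported and 19 moved out of it. The intervals of the medians came from ranked scores and were wide in small groups. They ran from 3.02 to 62.7 for the copies, 5.49 to 280 for complex III and 29.0 to 441 for complex V. Staying within them thus says little about how stable these medians are. At 250 bp, the share of all genes was 54.1% and their median score 95.8. At 1000 bp, the share was 100% for subunit genes, 100% for complex I and 65.7% for all genes, whose median was 108. With the strongest summit of each peak the share of all genes was 54.9%. With summits at or above the median score, the shares were 66.2% for OXPHOS genes, 86.4% for subunit genes, 82.4% for complex I, 9.52% for copies and 50.5% for all genes, whose median was 128. Among isolated genes, 4 of 13 OXPHOS genes had a summit (30.8%, median score 11.8), as did the 1 subunit gene (100%, score 248), against 27.2% of all genes (median 65.1), and values per complex were not given. Counting ND-MNLL as a copy moved no value out of its interval, but it cannot change those of all OXPHOS genes or of complexes III, IV and V.

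No paired analysis was possible because the list pools all libraries. No library was left out for the same reason. A count at transcription start sites alone and a search for promoter motifs were not run, since both need strand or sequence. Low scores near 1.30 are at the limit of detection of the list, and a gene without a summit is one where none was called at the pooled depth, which is unknown.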

Other observations

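The mitochondrial genome, which encodes 13 further OXPHOS proteins, carried 31 of the summits in 4 peaks. Their median score was 22614, the lowest 418 and the highest 80130. The highest score on the nuclear chromosomes was 62828, and 2 nuclear summits exceeded the mitochondrial median. No difference in accessibility was read from these scores, since a cell holds many copies of the mitochondrial genome. The part of copy number was not tested.

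Markers of the blood cell lineage differed in score, with ush at 183, srp at 122, eater at 40.4, Hml at 33.1 and Pxn at 14.0. Of the markers of other cell types, vas scored 64.4 and elav 50.6. A summit near a gene boundary does not show that the gene is transcribed.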
